A study of Mus musculus with 18 samples.

Results

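The 39 Hox genes are the members of the 4 mouse Hox clusters that encode a Hox protein, and they were taken by gene symbol from the 41388 genes listed in every library. Cluster A held 11 of them, cluster B 10, cluster C 9 and cluster D 9. On GRCm38 the Hoxa genes lie on the minus strand of chromosome 6, the Hoxb genes on the plus strand of chromosome 11 (96194316 to 96368256), the Hoxc genes on the plus strand of chromosome 15 (102921103 to 103036852) and the Hoxd genes on the plus strand of chromosome 2 (74668310 to 74765142). Total RNA depleted of ribosomal RNA was sequenced from the soleus and the gastrocnemius, calf muscles of the hind limb that are rich in slow and in fast fibres. In knockout mice both the floxed Mbtps1 gene, which encodes Site-1 Protease (S1P, a Golgi protease that activates membrane-bound transcription factors), and the HSACre transgene were present. HSACre drives Cre from the human skeletal actin promoter in muscle fibres, so that other cells of the muscle are not its target. Control mice carried the floxed gene without Cre, and no group carried Cre without the floxed gene. All mice were 12 weeks old, ate standard chow and were fasted for 4 h before harvest. The titles give 4 libraries of knockout soleus (35, 39, 40 and 42), 5 of control soleus (34, 36, 37, 38 and 41), 4 of knockout gastrocnemius (2, 6, 7 and 9) and 5 of control gastrocnemius (1, 3, 4, 5 and 8). The labels do not say that libraries of a group came from separate mice, so the p-values may reflect technical rather than biological spread.

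Hox proteins are homeodomain transcription factors that give cells their place along the head-to-tail axis of the embryo. Within each cluster the genes stand in a numbered order, low numbers being active early and towards the head and high numbers later, towards the tail and the tips of the limbs. Genes with the same number in different clusters descend from a common ancestor and often act together. Adult connective tissue cells and muscle precursor cells are known to keep part of the Hox code of the body region in which they formed. In what follows positions 1 to 3 are called anterior, 4 to 8 central and 9 to 13 posterior.

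The libraries held 39.0 to 78.2 M counts (M, mega), and per M counts the Hox genes took 139 to 178 in knockout soleus, 134 to 163 in control soleus, 200 to 208 in knockout gastrocnemius and 193 to 216 in control gastrocnemius. Mbtps1 itself was not lower in the knockout libraries. It had 31.0 to 36.3 CPM (counts per M of the library, here on TMM-scaled library sizes) in knockout soleus, 30.5 to 34.4 in control soleus, 34.7 to 42.8 in knockout gastrocnemius and 29.6 to 34.9 in control gastrocnemius. The log2 fold change, knockout over control, was 0.10 in soleus (SE 0.07, edgeR adjusted p = 0.754) and 0.25 in gastrocnemius (SE 0.08, edgeR adjusted p = 0.0945). The counts cover the whole gene and all cells of the muscle, so they do not test whether the floxed exons were lost, and the genotypes rest on the labels. The slow-fibre markers were higher in control soleus than in control gastrocnemius in 8 of 8 cases, and 8 of 9 fast-fibre markers were lower, which fits the tissue labels.

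Levels between genes are given as RPKM, the same CPM per kilobase of listed gene length. Hoxc10, a lumbar and hindlimb gene, was the most abundant Hox gene in all 4 groups. Its mean was 17.9 ± 0.90 RPKM in knockout soleus (SD, n = 4), 17.3 ± 1.46 in control soleus (n = 5), 37.0 ± 2.64 in knockout gastrocnemius (n = 4) and 38.0 ± 3.43 in control gastrocnemius (n = 5). Alone it made up 29.7% of the summed Hox RPKM in control soleus and 38.6% in control gastrocnemius. Behind it the order differed between the muscles. Hoxc9 (4.95 RPKM), Hoxc11 (3.43) and Hoxd8 (3.35) followed in control soleus, whereas Hoxd8 (13.8 RPKM), Hoxd9 (12.1) and Hoxc9 (5.45) followed in control gastrocnemius.

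By cluster, the Hoxc genes carried the largest share of the summed Hox RPKM in every group. Their mean share was 61.7% ± 2.72 in knockout soleus, 58.2% ± 1.93 in control soleus, 59.0% ± 3.23 in knockout gastrocnemius and 54.6% ± 2.48 in control gastrocnemius (SD over 4 knockout or 5 control libraries). Cluster D took 10.2% ± 1.86 in knockout soleus, 11.4% ± 2.00 in control soleus, 22.5% ± 3.03 in knockout gastrocnemius and 28.1% ± 1.94 in control gastrocnemius. For cluster A the shares were 21.5%, 23.2%, 15.6% and 15.1%, and for cluster B 6.65%, 7.24%, 2.88% and 2.23%, in the same order of groups. By position, the 3 genes at position 10 summed to 20.4 RPKM in knockout soleus, 20.2 in control soleus, 41.8 in knockout gastrocnemius and 43.7 in control gastrocnemius, the highest sum of any position in each group. The anterior genes were faint, at 1.62, 1.72, 1.23 and 1.18 summed RPKM in the same order.

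**Figure D1:**
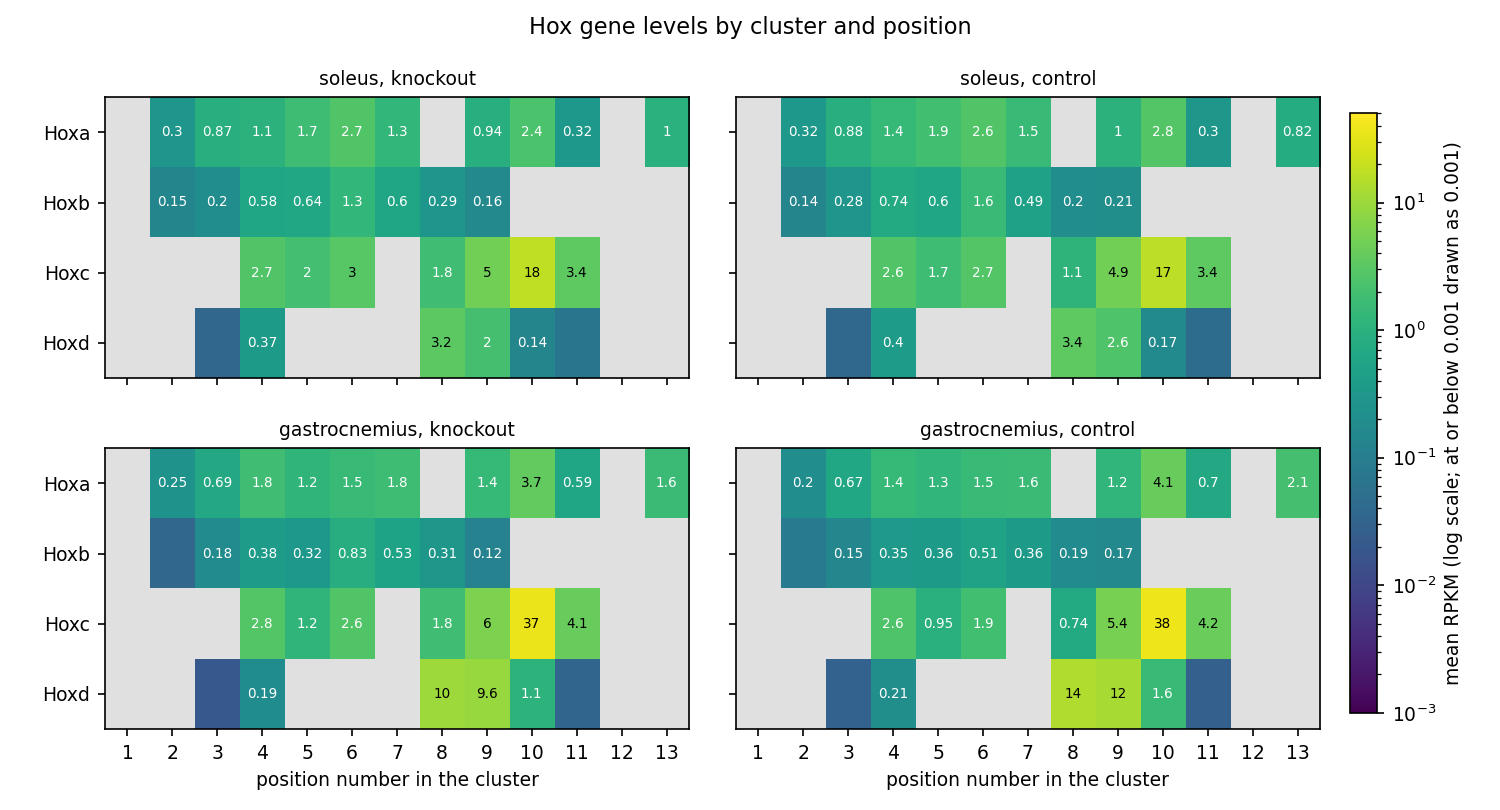
Mean RPKM of each of the 31 Hox genes tested over all libraries, on a log colour scale, with the 4 clusters as rows, position numbers 1 to 13 as columns and a panel for each group. Grey cells hold no gene of that cluster or none that was tested, and numbers are printed where the mean reached 0.1 RPKM. Hoxc10 is the brightest cell of every panel, and Hoxd8 and Hoxd9 are brighter in both gastrocnemius panels than in both soleus panels.

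The ends of the clusters were at the limit of detection. Hoxb1 (a hindbrain gene), Hoxd1, Hoxb13, Hoxc12, Hoxc13, Hoxd12 and Hoxd13 (a digit gene) reached at most 7 counts in any library and were not tested. Hoxc12 had 10 counts over the knockout soleus libraries and 10 over the control soleus libraries, against 2 over the knockout gastrocnemius and 3 over the control gastrocnemius libraries. Hoxd13 had 1 count in a single library of knockout soleus and 1 in a single library of control gastrocnemius. Hoxb13 had 0 counts over the 4 knockout soleus libraries and 3 over the 5 control soleus libraries. A count of 0 over a group allows a level of up to 0.0139 CPM in knockout soleus, 0.00997 in control soleus, 0.0157 in knockout gastrocnemius and 0.0134 in control gastrocnemius. That is 3 counts over the summed totals of the group's libraries and covers counting error only. These limits use totals without TMM scaling, unlike the other CPM values. In all 31 genes passed the filter on low counts over the 18 libraries and in soleus. In gastrocnemius 29 passed, Hoxd3 and Hoxd11 being too low there.

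Soleus and gastrocnemius were compared first in control mice, to see which Hox genes mark the muscle. Of 31 tested Hox genes, 18 passed the threshold (edgeR quasi-likelihood test over all genes, adjusted p under 0.05), 11 higher and 7 lower in soleus. The muscles differed widely: 49.3% of all tested genes passed, 27.4% as higher and 21.9% as lower, so 18 of 31 (58.1%) is not far above the background. The median log2 fold change was 0.40 over the 31 Hox genes and 0.08 over all tested genes. The direction of the calls differed along the clusters. Of 11 posterior genes 0 were higher and 6 lower, of 15 central genes 9 were higher and 1 lower, and of 5 anterior genes 2 were higher and 0 lower. Across the 31 genes the Spearman correlation between log2 fold change and position number was -0.62, with -0.84 within cluster A (10 genes), -0.57 within B (8), -0.71 within C (7) and -0.31 within D (6). These correlations describe genes measured in the same libraries and are not tests.

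**Figure D2:**
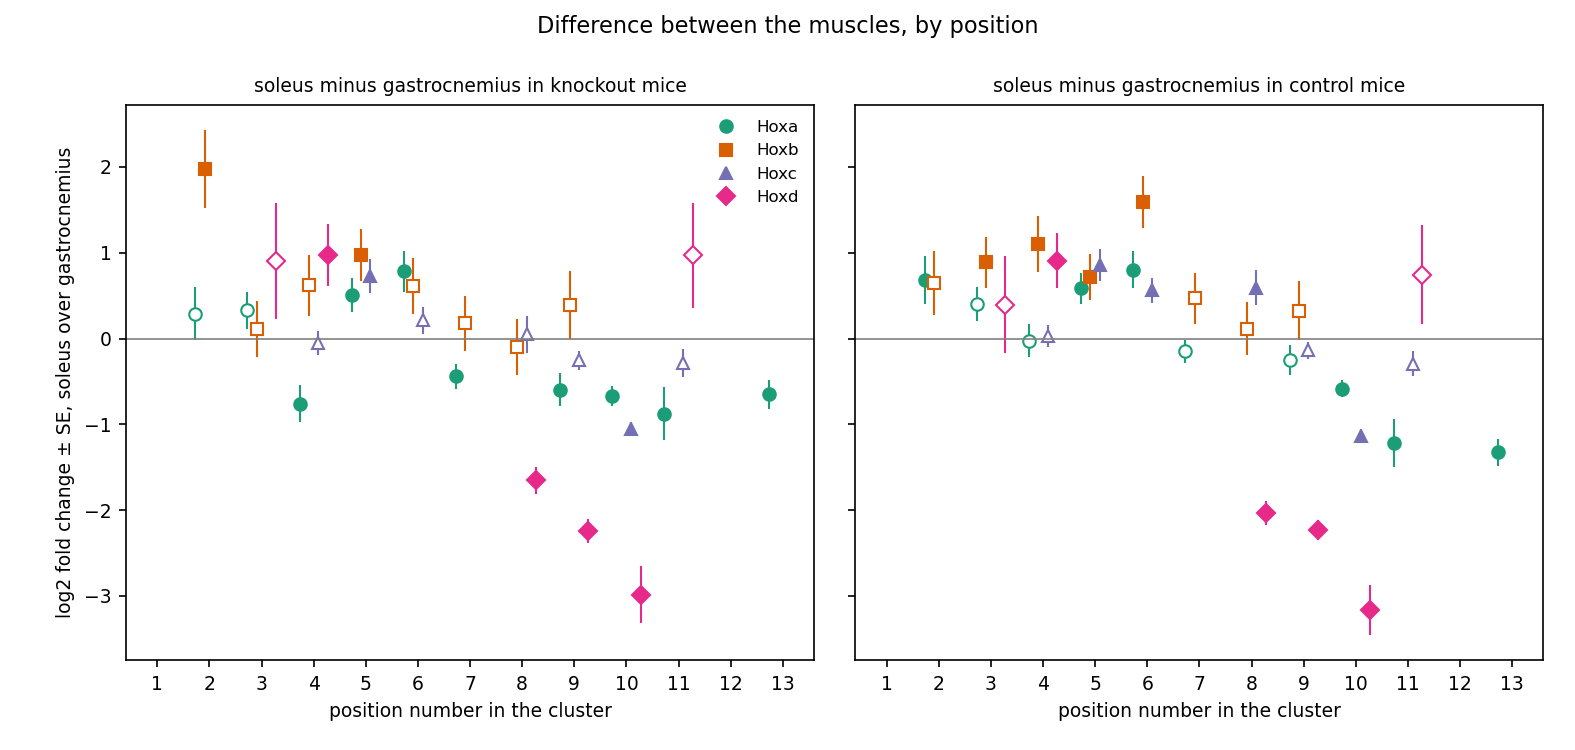
Log2 fold change of each tested Hox gene, soleus over gastrocnemius, with its standard error (SE) against position number, in knockout mice (left) and control mice (right). Colour and shape give the cluster, and filled symbols passed the threshold. Genes at positions 2 to 6 lie mostly above 0 and genes at positions 9 to 13 mostly below it, with Hoxd8, Hoxd9 and Hoxd10 lowest in both panels.

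The deepest differences were in cluster D. Hoxd9, which acts in proximal limb patterning, had 4.00, 4.86, 6.77, 6.01 and 5.79 CPM in control soleus libraries 34, 36, 37, 38 and 41, against 24.7, 25.9, 29.5, 26.8 and 22.3 CPM in control gastrocnemius libraries 1, 3, 4, 5 and 8. Every soleus library lay below every gastrocnemius library, with a wide gap between them. The log2 fold change was -2.23 (SE 0.12, edgeR adjusted p = 1.63e-12), or 4.70-fold lower. Hoxd8, its neighbour, had 7.11, 10.4, 10.9, 9.78 and 7.78 CPM in control soleus, against 38.4, 34.0, 42.1, 43.1 and 31.5 CPM in control gastrocnemius (log2 fold change -2.03, SE 0.14, edgeR adjusted p = 3.14e-10). Hoxd10, a hindlimb and lumbar motor neuron gene, had 0.324, 0.375, 0.361, 0.201 and 0.282 CPM in control soleus, against 2.97, 2.03, 3.33, 3.11 and 2.69 CPM in control gastrocnemius. That was the largest fold change of any tested Hox gene, -3.17 (SE 0.29, edgeR adjusted p = 7.05e-09), and it rested on 10 to 31 counts per soleus library. The 2 tested genes at the head end of cluster D did not share this direction: Hoxd4 was higher in soleus (0.90, SE 0.32, edgeR adjusted p = 0.0234) and Hoxd3 did not pass (0.40, SE 0.57). Hoxd3 and Hoxd4 share 62.3% and 52.3% of their exonic bases with other genes on the same strand, each other included, so that their counts are uncertain.

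Hoxd8, Hoxd9 and Hoxd10 were lower in soleus, while Hoxa5 and Hoxa6, neighbours in cluster A, were higher, and their promoters are shown for the sequence context of these opposite directions. Each is 300 bases long, from 250 before the RefSeq start to 50 after it, 5′ to 3′ on the gene's strand, from RefSeq on GRCm38.p6. The positions are chr2:74704365-74704664, chr2:74697513-74697812 and chr2:74691641-74691940 on the plus strand and chr6:52204538-52204837 and chr6:52208623-52208922 on the minus strand. Capitals mark each E-box, CANNTG, the core bound by basic helix-loop-helix factors such as the myogenic regulators.
Hoxd8: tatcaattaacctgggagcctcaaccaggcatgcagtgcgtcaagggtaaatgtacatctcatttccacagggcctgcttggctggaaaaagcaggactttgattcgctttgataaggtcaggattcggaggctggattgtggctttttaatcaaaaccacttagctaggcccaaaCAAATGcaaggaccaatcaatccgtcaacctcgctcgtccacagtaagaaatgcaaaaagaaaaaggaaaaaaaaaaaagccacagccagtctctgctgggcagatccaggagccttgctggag
Hoxd9: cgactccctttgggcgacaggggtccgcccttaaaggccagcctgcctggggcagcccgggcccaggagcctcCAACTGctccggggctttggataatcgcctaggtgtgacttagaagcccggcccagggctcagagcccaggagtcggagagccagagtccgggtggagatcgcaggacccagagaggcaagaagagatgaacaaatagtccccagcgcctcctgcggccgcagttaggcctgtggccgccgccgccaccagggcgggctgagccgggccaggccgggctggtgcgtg
Hoxd10: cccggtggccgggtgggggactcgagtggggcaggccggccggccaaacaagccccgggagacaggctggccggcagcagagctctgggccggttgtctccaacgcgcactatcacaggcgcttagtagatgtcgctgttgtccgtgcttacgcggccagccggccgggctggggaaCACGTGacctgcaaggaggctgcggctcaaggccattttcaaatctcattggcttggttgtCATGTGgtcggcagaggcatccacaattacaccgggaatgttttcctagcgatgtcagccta
Hoxa5: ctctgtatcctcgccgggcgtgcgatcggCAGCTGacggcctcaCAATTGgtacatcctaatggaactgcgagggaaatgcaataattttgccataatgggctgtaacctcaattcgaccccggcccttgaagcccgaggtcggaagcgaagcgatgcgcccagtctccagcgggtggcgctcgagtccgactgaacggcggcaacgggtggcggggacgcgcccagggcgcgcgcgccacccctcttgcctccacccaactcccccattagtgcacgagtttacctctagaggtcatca
Hoxa6: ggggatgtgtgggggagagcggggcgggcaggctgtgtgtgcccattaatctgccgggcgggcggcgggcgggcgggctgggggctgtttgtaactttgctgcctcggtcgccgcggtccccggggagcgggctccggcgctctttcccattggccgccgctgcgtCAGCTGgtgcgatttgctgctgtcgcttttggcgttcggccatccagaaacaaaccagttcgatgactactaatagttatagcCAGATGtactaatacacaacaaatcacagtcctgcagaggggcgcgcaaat
E-boxes stood in all 5 of these windows (CANNTG is its own reverse complement), as they did in 72.3% of 32851 promoters of the same length, and in 17 of 24 Hox promoters. The GC box GGGCGG, on either strand, was in 10 of the 24 Hox promoters and 35.7% of all. Hoxd8 had 46.7% G and C and 6 CG pairs, Hoxd9 68.3% and 20, Hoxd10 62.7% and 22, Hoxa5 61.7% and 29 and Hoxa6 62.0% and 26, where the median over all promoters was 52.7% and 7.

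Posterior genes of the other clusters fell as well. Hoxc10 had 33.4, 29.9, 31.6, 33.1 and 37.4 CPM in control soleus, against 72.0, 61.3, 75.8, 75.9 and 77.4 CPM in control gastrocnemius. All soleus libraries lay below all gastrocnemius libraries, and the log2 fold change of -1.13 (SE 0.07) had an edgeR adjusted p of 2.65e-11. Hoxa13, known for its role in the hand and foot plate, had 2.09, 1.90, 1.76, 2.31 and 2.10 CPM in control soleus, against 5.36, 4.74, 3.78, 6.62 and 4.94 CPM in control gastrocnemius (-1.33, SE 0.15, edgeR adjusted p = 2.94e-07). Hoxa11, a gene of the lower leg and forearm, fell by 1.22 on the log2 scale (SE 0.28, edgeR adjusted p = 0.00098), and Hoxa10, a gene of the lumbar level and the upper leg, fell by 0.58 (SE 0.10, edgeR adjusted p = 7.6e-05). Hoxa11 shares 35.0% of its exonic bases with its antisense gene Hoxa11os, and whether the counting used strand is unknown, so their reads may be mixed. The remaining 5 posterior genes did not pass: Hoxa9 at -0.25, Hoxc9 at -0.14 and Hoxc11 at -0.29 lay below 0, Hoxb9 at 0.32 and Hoxd11 at 0.75 above it.

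**Figure D3:**
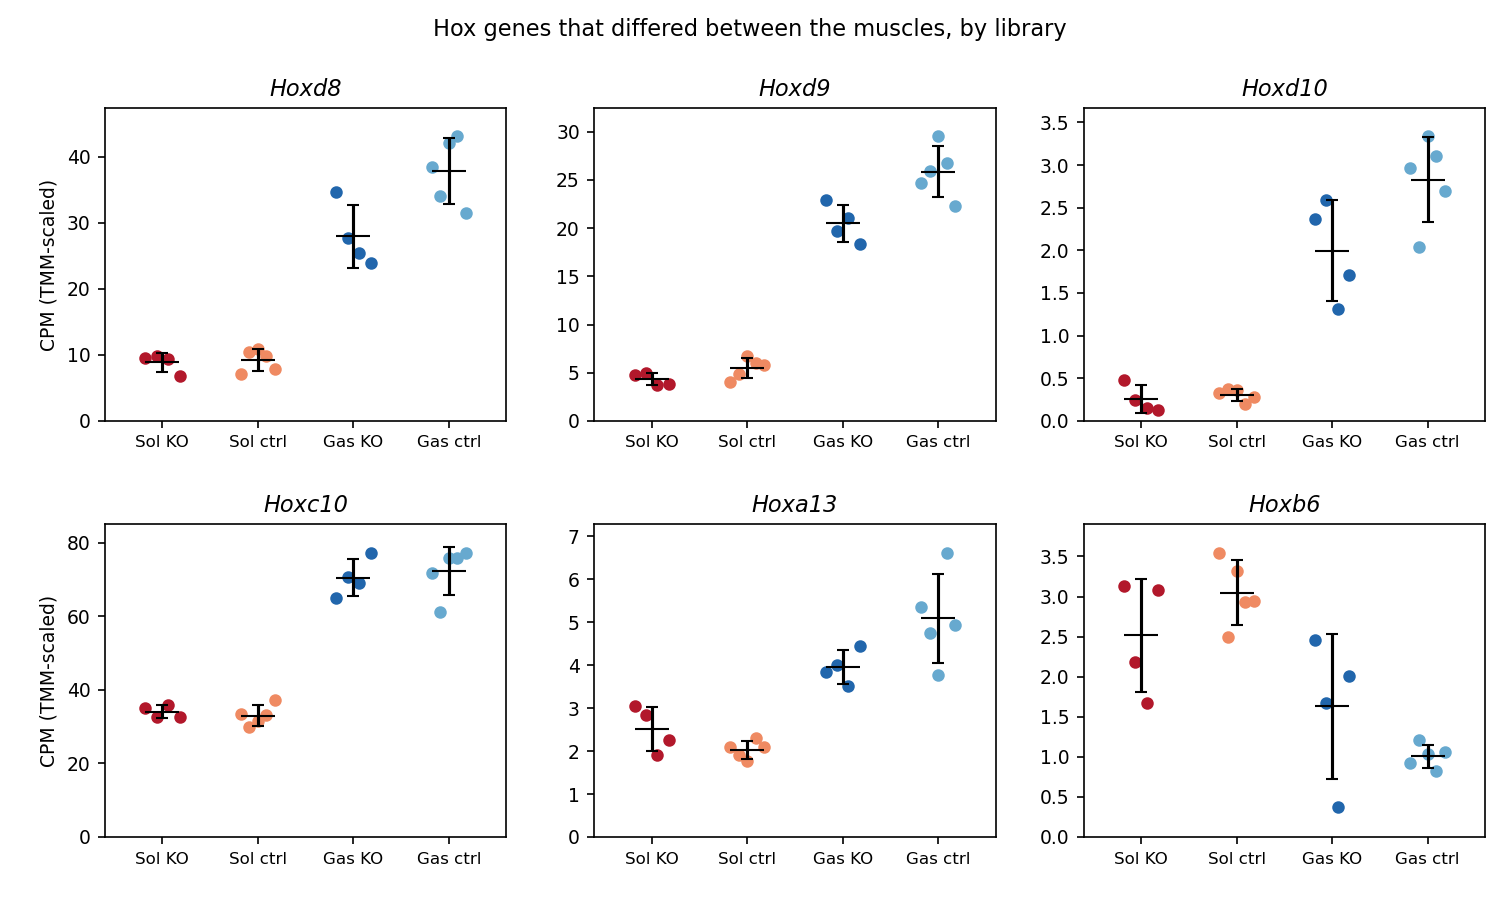
CPM on TMM-scaled library sizes of 6 Hox genes in each library (points), with mean and SD (black), for knockout and control soleus (Sol KO, Sol ctrl) and knockout and control gastrocnemius (Gas KO, Gas ctrl). For Hoxd8, Hoxd9, Hoxd10, Hoxc10 and Hoxa13 each soleus group lies wholly below the gastrocnemius group of the same genotype, and for Hoxb6 the control soleus libraries (2.50 to 3.55 CPM) lie above the control gastrocnemius libraries (0.824 to 1.20 CPM).

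Central genes ran the other way. Hoxb6, expressed in lateral plate mesoderm in the embryo, had 3.55, 2.50, 3.32, 2.93 and 2.94 CPM in control soleus, against 0.925, 1.20, 1.03, 0.824 and 1.06 CPM in control gastrocnemius. The muscles did not overlap, and its log2 fold change of 1.59 (SE 0.30, edgeR adjusted p = 0.000186) was the largest rise among the Hox genes. Hoxb4 rose by 1.11 (SE 0.33, edgeR adjusted p = 0.00762), Hoxc5 by 0.86 (SE 0.18, edgeR adjusted p = 0.000513), Hoxa6 by 0.80 (SE 0.21, edgeR adjusted p = 0.0036) and Hoxb5 by 0.72 (SE 0.27, edgeR adjusted p = 0.0299). Hoxa5, a gene of the neck vertebrae and the lung, rose by 0.58 (SE 0.18, edgeR adjusted p = 0.0089), Hoxc6 by 0.56 (SE 0.15, edgeR adjusted p = 0.00295) and Hoxc8 by 0.59 (SE 0.20, edgeR adjusted p = 0.0183). All 3 genes at position 5 and all 3 at position 6 were thus higher in soleus, whereas Hoxd8 was the single central gene that passed as lower. Among the anterior genes Hoxb3, active in the hindbrain, rose by 0.89 (SE 0.30, edgeR adjusted p = 0.0169) and Hoxa2, a branchial arch gene, by 0.69 (SE 0.28, edgeR adjusted p = 0.046). Hoxb3 shares 52.9% of its exonic bases with its antisense gene Hoxb3os.

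The groups of control libraries did not overlap for 14 of the 31 Hox genes, 7 higher and 7 lower, where 36.7% of all tested genes did not overlap (19.7% higher, 17.0% lower). When each library was left out in turn, 14 of the 18 calls held every time, and without control gastrocnemius library 8 the calls were 7 higher and 7 lower. Hoxd4 lost its call without control gastrocnemius library 8 (edgeR adjusted p = 0.0551), and Hoxc8 lost it without control gastrocnemius library 4 or 8 or control soleus library 41 (up to 0.0559). Hoxb5 lost its call without control gastrocnemius library 1, 5 or 8 or control soleus library 34, 37 or 38 (up to 0.0758), and Hoxa2 without any of 8 libraries, all but control gastrocnemius library 3 and control soleus library 36 (up to 0.130). Hoxa2 also failed with RLE scaling, DESeq2, limma voom, no filter, the compared groups alone and the block. Markers of other cells also differed between the muscles, where 49.3% of all tested genes passed. Fibroblast markers passed as lower in control soleus in 4 of 8 cases, with a summed level of 1026 to 1611 CPM in control soleus against 1912 to 3135 CPM in control gastrocnemius, and 0 of the 8 were at 0. Schwann cell markers were lower in 3 of 6 (73.2 to 261 against 234 to 405 CPM), macrophage markers lower in 2 of 6 (46.1 to 69.7 against 68.4 to 103 CPM) and endothelial markers higher in 6 of 7 (355 to 384 against 265 to 294 CPM). Of 3 tested cartilage and bone markers 1 was higher (15.5 to 31.1 against 6.85 to 10.8 CPM). Other lists were mixed, with 2 higher and 1 lower of 6 tendon, 6 satellite cell and 7 smooth muscle and pericyte markers each. Their part in the Hox differences was not tested, and in whole muscle fewer cells of a type and less RNA per cell cannot be told apart.

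The muscles were then compared in knockout mice. Of 31 Hox genes 16 passed, 6 higher and 10 lower in soleus, against 37.8% of all tested genes (19.2% higher, 18.5% lower). Without knockout soleus library 42 the calls were 2 higher and 12 lower of 30 tested, and the median over the Hox genes was -0.06, against 0.11 with it. The 12 genes called in both genotypes, 75.0% of the calls in knockout mice and 66.7% of those in control mice, all had the same direction: Hoxa10, Hoxa11, Hoxa13, Hoxc10, Hoxd8, Hoxd9 and Hoxd10 lower, and Hoxa5, Hoxa6, Hoxb5, Hoxc5 and Hoxd4 higher. Hoxd9 had 4.72, 4.98, 3.76 and 3.84 CPM in knockout soleus libraries 35, 39, 40 and 42, against 22.9, 19.7, 21.1 and 18.3 CPM in knockout gastrocnemius libraries 2, 6, 7 and 9. As in controls the muscles were far apart, at a log2 fold change of -2.24 (SE 0.14, edgeR adjusted p = 2.47e-11). Hoxd8 (-1.65, SE 0.15), Hoxd10 (-2.99, SE 0.33) and Hoxc10 (-1.05, SE 0.08) also stood apart without overlap, among 10 such Hox genes (3 higher, 7 lower), where 32.4% of all tested genes did not overlap (16.5% higher, 15.9% lower).

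Posterior genes again fell, 7 of 11 with 0 higher. Of 15 central genes 5 were higher and 3 lower, a more mixed picture than in control mice, and of 5 anterior genes 1 was higher and 0 lower. The Spearman correlation of the change with position was -0.57 over the 31 genes. It was -0.53 within cluster A (-0.84 in control mice), -0.52 within B, -0.75 within C and -0.31 within D. Hoxa4 (-0.76, SE 0.21, edgeR adjusted p = 0.00729), Hoxa7 (-0.44, SE 0.15, edgeR adjusted p = 0.0236) and Hoxa9 (-0.60, SE 0.19, edgeR adjusted p = 0.0195) passed as lower in knockout soleus, where in control mice they had not. Hoxb2 passed as higher (1.97, SE 0.45, edgeR adjusted p = 0.00154), with 41, 23, 15 and 38 counts in knockout soleus against 5, 7, 3 and 8 counts in knockout gastrocnemius. Hoxb2 shares 27.3% of its exonic bases with the antisense gene Hoxb3os, and as the use of strand is unknown, their reads may be mixed. Of the 16 calls, 9 held in every leave-one-out fit, and the other 7 reached an edgeR adjusted p of 0.0611 to 0.169. Hoxa6 lost its call without knockout soleus library 42, and Hoxb5 without that library or knockout gastrocnemius library 6. Hoxa5 lost it without knockout soleus library 35 or 42 or knockout gastrocnemius library 6, 7 or 9, and Hoxd4 without soleus library 39 or 42 or gastrocnemius library 7 or 9. Hoxa7 failed without soleus library 35 or 40 or gastrocnemius library 6, Hoxa9 without soleus library 35, 39 or 40 or gastrocnemius library 9, and Hoxa11 without soleus library 35 or 39 or gastrocnemius library 9. Fibroblast markers were lower in knockout soleus in 4 of 8 cases (summed 1102 to 2403 CPM, against 2550 to 4176 CPM in knockout gastrocnemius), Schwann cell markers in 5 of 6 (80.1 to 169 against 201 to 349 CPM) and macrophage markers in 4 of 6 (59.3 to 110 against 95.1 to 205 CPM). Endothelial markers were higher in 5 of 7 and lower in 1 (346 to 372 against 287 to 333 CPM), and cartilage and bone markers higher in 2 of 3 tested (13.01 to 34.02 against 6.82 to 9.86 CPM). Of 6 tendon markers 1 was higher and 1 lower, of 6 satellite cell markers 0 were higher and 1 lower, and of 7 smooth muscle and pericyte markers 2 were higher and 1 lower. Over all tested genes 37.8% passed in this comparison. The part of these other cells in the Hox differences was not tested.

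Whether the knockout acted differently in the muscles was tested directly, and 0 of 31 Hox genes passed in edgeR, DESeq2 or limma voom. Hox genes at an unadjusted p under 0.05 numbered 4 in edgeR, 4 with DESeq2 and 2 with limma voom. Among all genes 0.0703% passed in edgeR (0.0595% higher, 0.0108% lower). The smallest p values among Hox genes were those of Hoxa13, whose knockout effect was 0.68 higher in soleus on the log2 scale (SE 0.23, edgeR adjusted p = 0.634), and Hoxa4, whose effect was -0.74 (SE 0.29, edgeR adjusted p = 0.787). Calls made in a single genotype, such as Hoxb6 in controls or Hoxa4 in knockouts, are therefore not shown to differ between genotypes.

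In gastrocnemius the knockout was set against the control to see which Hox genes differ in muscle with the S1P deletion. Hoxc8, a gene of the brachial and thoracic levels of the trunk, was the single gene of 29 that passed, where 3.78% of all tested genes did (1.77% higher, 2.01% lower), so 1 of 29 (3.45%) is no larger a share than the background. It had 200, 241, 227 and 230 counts in knockout libraries 2, 6, 7 and 9, against 97, 120, 56, 70 and 79 counts in control libraries 1, 3, 4, 5 and 8. On the CPM scale these were 4.60, 5.67, 5.60 and 4.37 in knockout gastrocnemius, against 2.09, 3.21, 1.65, 1.86 and 1.70 in control gastrocnemius. Every knockout library lay above every control library, control library 3 being the highest of its group. The log2 fold change was 1.26 (SE 0.20, edgeR adjusted p = 0.00389), a 2.40-fold higher level. It kept its call when each of the 9 libraries was left out in turn, at an edgeR adjusted p of 0.00106 to 0.0223. Hoxc8 (chr15:102990607-102994111) shares no exonic base with another gene.

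The next Hox genes by p did not pass. Hoxc6, which neighbours Hoxc8, had 6.67, 8.22, 4.78 and 5.68 CPM in knockout gastrocnemius, against 4.19, 5.30, 4.57, 4.22 and 4.14 CPM in control gastrocnemius (log2 fold change 0.50, SE 0.16, edgeR adjusted p = 0.0909). The ranges overlapped. Hoxd9 had 22.9, 19.7, 21.1 and 18.3 CPM in knockout gastrocnemius, against 24.7, 25.9, 29.5, 26.8 and 22.3 CPM in control gastrocnemius (-0.33, SE 0.09, edgeR adjusted p = 0.0615). Hoxd8 was at -0.43 (SE 0.12, edgeR adjusted p = 0.0654), Hoxd10 at -0.50 (SE 0.22), Hoxa13 at -0.36 (SE 0.16), Hoxb8 at 0.72 (SE 0.30) and Hoxb2 at -1.23 (SE 0.45), with edgeR adjusted p of 0.148 to 0.231 for the last 4. DESeq2 called Hoxc6, Hoxd8 and Hoxd9 as well as Hoxc8, at adjusted p of 0.046, 0.0161 and 0.0209 for the added genes. Hoxd8 and Hoxd9 also passed in edgeR without knockout library 2 or without control library 8, and Hoxc6 without knockout library 7.

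Along the clusters the 4 tested Hoxd genes were all below 0 (median -0.38) and the 4 central Hoxc genes all above 0 (median 0.42), where the medians were 0.06 over the 29 Hox genes and 0.02 over all tested genes. The 5 central Hoxb genes had a median of 0.57, with 4 above 0, and the 4 central Hoxa genes 0.08, with 3 above 0. Of all these genes only Hoxc8 passed the threshold. Within cluster C the fold change was largest at Hoxc8 and smaller on both sides: Hoxc4 0.12, Hoxc5 0.33 and Hoxc6 0.50 towards the head end, Hoxc9 0.14, Hoxc10 -0.04 and Hoxc11 -0.02 towards the tail end. The groups did not overlap for 3 of 29 Hox genes, Hoxc8 and Hoxb8 higher and Hoxb2 lower in knockout gastrocnemius, where 8.41% of all tested genes did not overlap (3.79% higher, 4.62% lower). Hoxb2 rested on 5, 7, 3 and 8 counts in knockout gastrocnemius against 19, 10, 6, 13 and 14 counts in control gastrocnemius. Macrophage markers summed to 95.1 to 205 CPM in knockout gastrocnemius and 68.4 to 103 CPM in control gastrocnemius, with 0 of 6 past the threshold, and fibroblast markers to 2550 to 4176 against 1912 to 3135 CPM, with 0 of 8. Slow-fibre markers summed to 437 to 972 CPM in knockout gastrocnemius and 956 to 1479 CPM in control gastrocnemius, 1 of 8 being lower, and of 6 satellite cell markers 1 was higher and 1 lower. Of 2 lymphocyte markers that could be tested, 1 was higher, where 3.78% of all tested genes passed in this comparison. Endothelial markers were above 0 in 7 of 7 cases, Schwann cell and adipocyte markers in 0 of 6 each, with 0 of them past the threshold. Their part in the Hoxc8 difference was not tested.

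**Figure D4:**
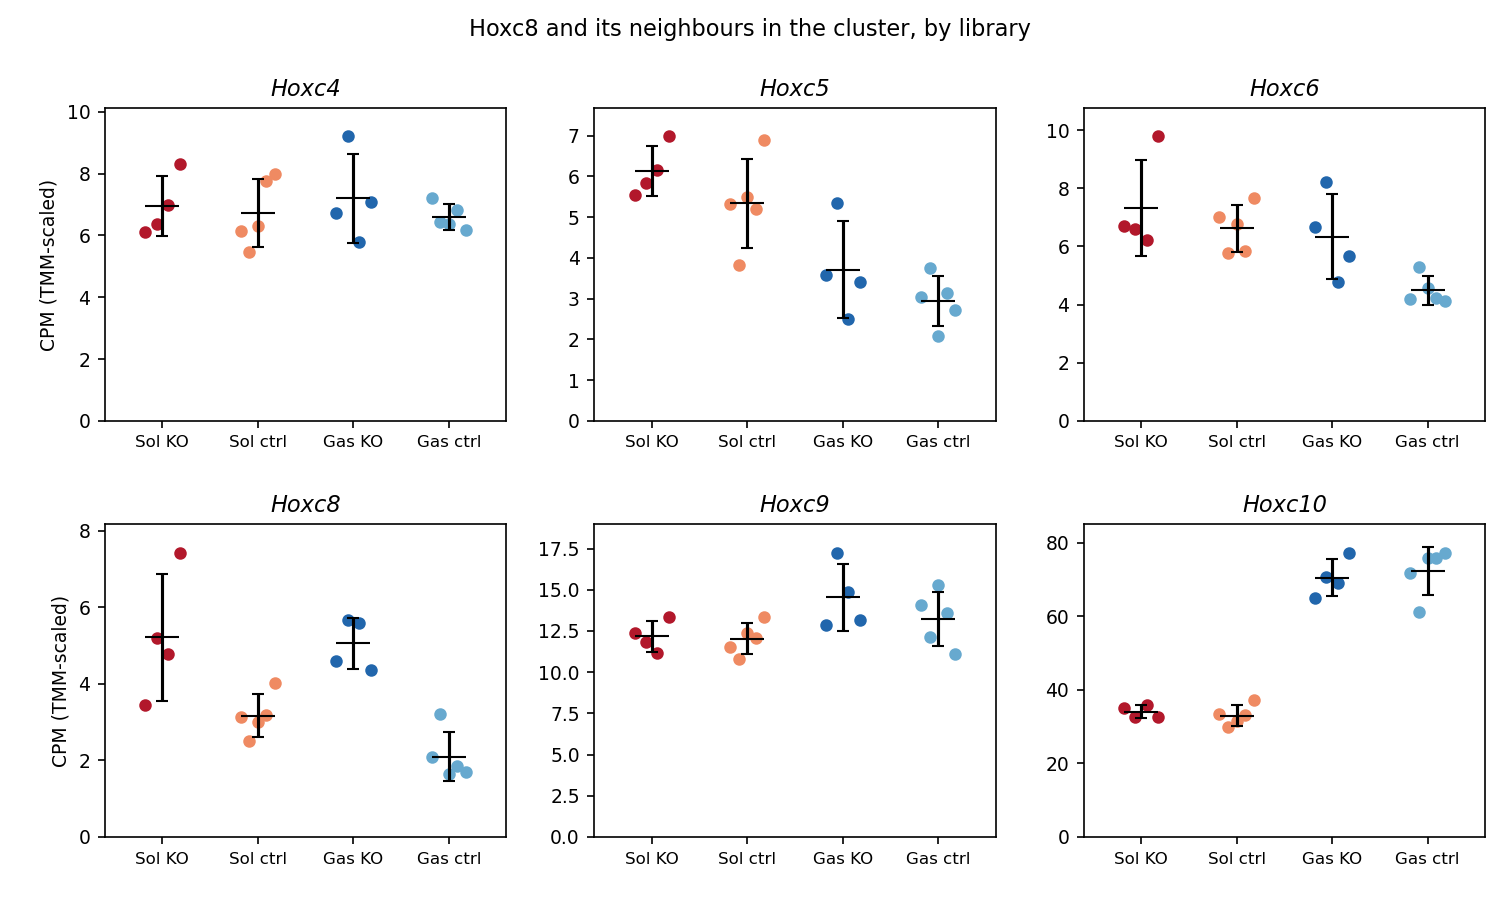
CPM on TMM-scaled library sizes of Hoxc8 and 5 other genes of cluster C in each library (points), with mean and SD (black), for the groups Sol KO, Sol ctrl, Gas KO and Gas ctrl. Hoxc8 lies higher in all 4 knockout gastrocnemius libraries (4.37 to 5.67 CPM) than in the 5 control ones (1.65 to 3.21 CPM), while Hoxc9 and Hoxc10 overlap between genotypes in both muscles.

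In soleus 0 of 31 Hox genes passed between knockout and control in edgeR, where 0.0553% of all tested genes did (0.0387% higher, 0.0166% lower). With DESeq2 and with limma voom 0 of 31 passed as well. Hox genes at an unadjusted p under 0.05 numbered 2 in edgeR, 3 with DESeq2 and 1 with limma voom. Hoxc8 again had the smallest p. It had 3.45, 5.19, 4.80 and 7.44 CPM in knockout soleus libraries 35, 39, 40 and 42, against 3.14, 2.50, 3.01, 3.19 and 4.03 CPM in control soleus libraries 34, 36, 37, 38 and 41. Of the knockout libraries 3 lay above all controls and library 35 lay among them. The log2 fold change was 0.73 (SE 0.20, edgeR adjusted p = 0.323, 0.0590 to 0.669 over the alternatives), and it was 0.51 without library 42 and 0.89 without library 35. The effect in soleus minus that in gastrocnemius was -0.54 (SE 0.29, edgeR adjusted p = 0.964), so a difference between the muscles was not shown. Hoxa10 followed at -0.22 (SE 0.10), Hoxd9 at -0.34 (SE 0.16), Hoxa4 at -0.38 (SE 0.20), Hoxa13 at 0.32 (SE 0.17), Hoxb3 at -0.47 (SE 0.27), Hoxb8 at 0.51 (SE 0.33) and Hoxb4 at -0.33 (SE 0.22), with edgeR adjusted p of 0.607 to 0.75. No Hox gene had groups without overlap, where 2.55% of all tested genes did (1.31% higher, 1.24% lower). Fibroblast markers summed to 1102 to 2403 CPM in knockout soleus and 1026 to 1611 CPM in control soleus, with 0 of 8 past the threshold.

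**Figure D5:**
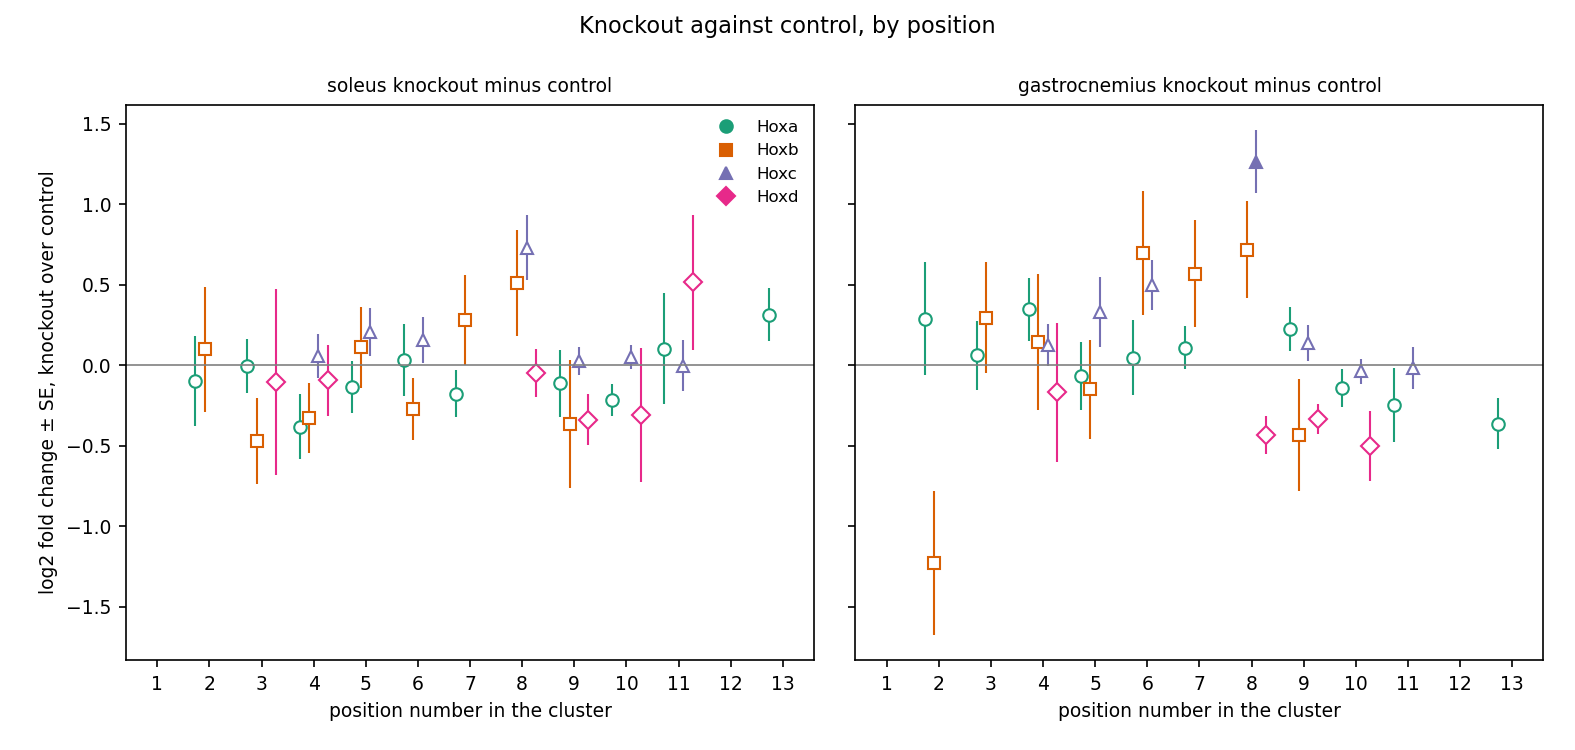
Log2 fold change of each tested Hox gene, knockout over control, with its SE against position number, in soleus (left) and gastrocnemius (right). Colour and shape give the cluster, and the filled symbol, Hoxc8 in gastrocnemius at 1.26, is the single gene past the threshold, while in soleus Hoxc8 lies highest at 0.73.

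With both muscles in a single edgeR fit and muscle as a term, an alternative chosen after seeing the data, 2 of 31 Hox genes passed, against 5.25% of all tested genes (3.06% higher, 2.2% lower). Hoxc8 was higher in knockout mice (0.98, SE 0.15, edgeR adjusted p = 0.000896) and Hoxd9 lower (-0.34, SE 0.09, edgeR adjusted p = 0.0278). This fit treats all libraries as independent. With matched title numbers as a random block in limma voom the values were 0.93 (SE 0.17, limma adjusted p = 0.00425) for Hoxc8 and -0.33 (SE 0.09, limma adjusted p = 0.0436) for Hoxd9.

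Other RNAs of the clusters were read from a list of 26 non-coding genes, of which 19 were listed and 12 tested over all libraries. Between the muscles in control mice 5 of 12 passed, 4 higher and 1 lower in soleus, where 49.3% of all tested genes passed. The list median was 0.70, against 0.08 over all tested genes. The microRNA gene Mir615, which lies within Hoxc5, rose by 1.64 (SE 0.55, edgeR adjusted p = 0.017), 5730596B20Rik by 0.99 (SE 0.32, edgeR adjusted p = 0.0133) and Hoxaas3, an antisense RNA of cluster A, by 0.83 (SE 0.27, edgeR adjusted p = 0.0161). Total RNA was sequenced, so counts over Mir615 do not tell the microRNA from unspliced Hoxc5 RNA. 5730596B20Rik and Hoxaas3 share exonic bases with Hoxa3, and Hoxaas3 also with Hoxa7, so their reads may be mixed. Hoxa11os, the antisense partner of Hoxa11, fell by 1.06 (SE 0.38, edgeR adjusted p = 0.0315) in knockout mice. It was the single member called there of 12 tested, where 37.8% of all tested genes passed. In control mice it fell by 0.85 (SE 0.34, edgeR adjusted p = 0.0432). The Hoxa11os call was lost in 7 of 14 alternatives in knockout mice (adjusted p up to 0.103) and in 8 of 16 in control mice (up to 0.168, limma voom and no filter among them). Between knockout and control 0 of 8 passed in gastrocnemius and 0 of 12 in soleus (edgeR).

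Hox proteins bind DNA with partners of the Pbx, Meis and Pknox families, and geminin (Gmnn) antagonises them. The list of 17 genes held these and also Cdx1, Cdx2, Cdx4, Gbx2, Mnx1, Evx1 and Evx2. Of the 17 genes 9 were tested. Between the muscles in control mice 4 of 9 passed, 2 higher and 2 lower in soleus, where 49.3% of all tested genes passed. Among them Gmnn (1.26, SE 0.18, edgeR adjusted p = 5.13e-06) was higher in soleus, and Meis2 (-0.81, SE 0.18) and Pknox2 (-0.56, SE 0.10) were lower. Gmnn averaged 3.99 ± 0.62 CPM in control soleus and 1.65 ± 0.37 CPM in control gastrocnemius (SD, n = 5 each). In knockout mice 4 of 9 passed, 2 higher and 2 lower in soleus, where 37.8% of all tested genes passed. Gmnn and Pknox2 passed there in the same direction as in control mice, and Pbx2 passed as lower in soleus (-0.38, SE 0.09). Between knockout and control gastrocnemius 1 of 9 passed, where 3.78% of all tested genes did. This was Pbx2, higher at 20.6 ± 1.63 CPM in knockout gastrocnemius (SD, n = 4) against 16.5 ± 1.12 CPM in control gastrocnemius (SD, n = 5). Its change was 0.32 (SE 0.08, edgeR adjusted p = 0.0414, up to 0.132 over the alternatives).

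Polycomb and trithorax proteins hold Hox genes silent or active, and all 31 genes of that list were tested. Of them 9 were higher and 7 lower in control soleus than in control gastrocnemius, a share near the 49.3% of all tested genes, with a median of 0.04. Phc1 (-0.74, SE 0.13), Rnf2 (0.56, SE 0.10), Pcgf2 (0.54, SE 0.16) and Ezh2 (0.47, SE 0.15), the last being a methyltransferase of Polycomb, had the largest changes of those called. In knockout mice 6 of 31 were higher and 4 lower in soleus, where 37.8% of all tested genes passed. In knockout gastrocnemius only Bmi1 of the 31 passed, where 3.78% of all tested genes did. Its change was -0.31 (SE 0.08, edgeR adjusted p = 0.0372, up to 0.132 over the alternatives). In soleus 0 of 31 passed in edgeR between knockout and control.

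Limb identity genes act beside the Hox genes in the limb bud. Of 20 tested in gastrocnemius, 2 were higher and 1 lower in the knockout, where 3.78% of all tested genes passed. Alx4, a limb mesenchyme homeobox gene, averaged 2.80 ± 0.41 CPM in knockout gastrocnemius (SD, n = 4) and 0.929 ± 0.19 CPM in control gastrocnemius (SD, n = 5), and its change on the log2 scale was 1.58 (SE 0.21, edgeR adjusted p = 0.00169). Tbx4, the hindlimb T-box gene, rose by 1.05 (SE 0.23, edgeR adjusted p = 0.0264, up to 0.0712 over the alternatives), and Lbx1, a gene of migrating muscle precursors, fell by 0.37 (SE 0.08, edgeR adjusted p = 0.0201, up to 0.0543). Between the muscles in control mice 3 of 21 were higher and 5 lower in soleus, where 49.3% of all tested genes passed. Emx2 (2.34, SE 0.37) and Tbx3 (1.16, SE 0.11) were higher, and Lbx1 (-1.09, SE 0.09) and Shox2 (-1.08, SE 0.18) lower. In knockout mice 3 of 21 were likewise higher and 5 lower, where 37.8% of all tested genes passed, with Emx2 at 2.25 (SE 0.42) and Alx4 at -2.08 (SE 0.31). In soleus 0 of 19 passed in edgeR between knockout and control.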

How the data were processed

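RNA of gastrocnemius and soleus was read in 18 libraries. Per the submitters' processing notes, software included STAR 2.5.1a, featureCounts 1.4.6-p5 (Subread) and bcl2fastq, with genome build GRCm38. Annotation release, strandedness and multi-mapping settings were not given in the sources used here. As deposited, each file lists counts of reads for every Ensembl gene, with lengths and exon coordinates. The deposited CPM equalled those counts scaled to the library total (largest difference 4.9e-10), and the deposited RPKM equalled that CPM per kilobase (4.1e-10), so only counts and lengths were used. Symbols were found for 40254 of 41388 genes (97.26%) in a table of Ensembl IDs, and 0 lines named no gene. Library totals ran from 39.0 to 78.2 M. A chi-square of the counts per gene was 19.59 to 140.26 for library pairs within groups, far over sampling noise, and no libraries were merged. The series text states 4 per group, whereas the titles give 5 controls, and the titles were followed.

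The main test was the quasi-likelihood F-test of edgeR 4.0.16 in R 4.3.3, robust, after TMM scaling and filterByExpr (min.count 10, min.total.count 15). Benjamini-Hochberg adjustment ran over all tested genes, with a threshold of 0.05. Knockout effects used the 9 libraries of their muscle. Comparisons of the muscles, and of the knockout effects between them, used all 18 libraries in 4 groups with no covariate. CPM in the text is on TMM-scaled totals, except for the limits on a count of 0, which use unscaled totals. RPKM divides the TMM-scaled CPM by length, and SEs were derived from the fold change and its F. The fit was tested on simulated data. Alternatives were RLE scaling, DESeq2 1.42.0, limma 3.58.1 voom, no filter, other libraries in the fit, a block, and leaving out each library. Members past the threshold are named and, where fewer than 8 passed, the 8 with the smallest p. From each other list at most 4 genes were named, by size of change. Values of further Hox genes are given as positions along a cluster. Some genes are not reported here. The members and lists were chosen with earlier results of these data known. Titles number gastrocnemius 1 to 9 and soleus 34 to 42 in the same genotype order. The labels do not say that these are the same mice.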

Additional observations from a re-analysis of the deposited data

Results flagged for a closer look

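In 124 checks of a Hox gene within a group, 4 cases, from 2 libraries, had a library standing apart from the rest of its group, and chance gives about 1 in 20, or 6.2. Knockout soleus library 42 accounted for 3 of them: Hoxc6 at 9.78 CPM where the other 3 libraries had 6.21 to 6.72, Hoxc11 at 9.30 CPM where the others had 5.91 to 6.30, and Hoxd8 at 6.77 CPM where the others had 9.37 to 9.85. The fourth was Hoxc8 at 3.21 CPM in control gastrocnemius library 3, where the others had 1.65 to 2.09 CPM. Without that library the knockout effect on Hoxc8 in gastrocnemius was 1.47 on the log2 scale, against 1.26 with it.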

How the results depend on the processing

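Over the alternatives 857 values of the named Hox genes kept their direction and their side of the threshold, 50 lost and 10 gained the call, and 0 changed sign. These genes were named for their call or their small p, and other Hox genes did change sign. Between knockout and control soleus 14 of 31 Hox genes were above 0, but 8 of 31 without knockout soleus library 42. Hox genes called in gastrocnemius between knockout and control numbered 1, but 4 with DESeq2, 3 without the filter, and 1 to 3 when a library was left out. The counts over all genes moved more. In gastrocnemius 619 genes became 1235 with DESeq2 and 206 to 1080 without a library. In soleus 10 became 166 with DESeq2, 48 without the filter, 28 with all 18 libraries in the fit and 3 to 66 without a library. For the difference of the knockout effects 13 became 52 with DESeq2, 7 with limma voom, 32 with the replicate block on matched title numbers and 2 to 23 without a library. Over both muscles 971 became 630 with limma voom and the random block, an alternative chosen after seeing the data. The cause of these moves was not tested. Between the muscles the Hox calls, among 29 to 39 tested, were 13 to 18 in knockout mice and 17 to 19 in control mice over the other alternatives, and 12 to 18 in knockout mice and 14 to 19 in control mice without a library. The labels give the groups no shared replicate numbers, so the pairing below rests on title order alone. In each of 9 pairs by title order the deviations from the group means correlated best within the pair (0.101 to 0.543 over 11369 genes), a hint from the data and not the design. A replicate block that takes soleus numbers 34 to 42 as 1 to 9 gave 18 Hox calls in knockout mice, 19 in control mice and 0 for the difference of the knockout effects, and it ended the call of Hoxa2 in control mice. The 8 untested Hox genes had at most 13 counts in any library, and whether depth or a lack of expression lay behind this was not tested.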
